A study of Mus musculus with 11 samples.

Results

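Kainate receptors are glutamate-gated cation channels built from the subunits GluK1 to GluK5, which the genes Grik1 to Grik5 encode. GluK1, GluK2 and GluK3 bind kainate with low affinity and can form channels without other subunits, whereas GluK4 and GluK5 bind it with high affinity and reach the membrane as working receptors only together with a low-affinity subunit. Neto1 and Neto2 are single-pass membrane proteins that join the receptor as auxiliary subunits and slow its decay. In the hippocampus, kainate receptors are best known from the synapses of mossy fibres, the axons of dentate granule cells, onto CA3 pyramidal neurons, and from interneurons.

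The 7 genes were taken by name, Grik1 to Grik5 with Neto1 and Neto2, and all 7 were found among the 24421 gene rows of the count files and among the 14982 genes tested. RNA of mouse hippocampus was sequenced in 11 libraries from offspring of mothers dosed through the nose at gestational days 9, 12 and 15. The 6 libraries labelled PM came from offspring of mothers given particulate matter at 200 µg per kg, and the 5 labelled vehicle from the normal saline group. Pups were born on day 21 and their tissue was taken at 14 to 18 weeks of age. No strain, allele or sex is given in the labels. Libraries fall into 2 deposit sets, since library names start again and a treatment protocol is filled in for the second alone: the first holds PM replicates 1 to 3 and vehicle replicates 1 to 3, the second PM replicates 4 to 6 and vehicle replicates 4 and 5. That protocol field names PM in all 5 libraries of the second set, although the treatment field of vehicle replicates 4 and 5 names saline, which was used here. Whether each library is its own animal or litter is not stated in the labels, so p-values measure the spread between these libraries, which may be technical.

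Library make-up differed between the groups before any gene was tested. Gene counts were 10938521 to 17763893 per PM library and 6012116 to 12496651 per vehicle library. Counts that fell on no annotated feature were 18.8% to 34.0% of all counts in PM and 60.9% to 62.0% in vehicle libraries (exact permutation of the group labels, two-sided p = 0.0021645, which is the lowest value that 6 against 5 libraries can reach, and adjusted p = 0.004329 over 6 library measures). Rn45s, the ribosomal RNA precursor, took 4.01% to 17.0% of gene counts in PM and 0.792% to 2.17% in vehicle libraries. Malat1, a nuclear RNA, took 0.0827% to 0.807% in PM and 2.12% to 2.33% in vehicle libraries. The labels give 1 protocol for all 11 libraries, which removes ribosomal RNA, beside a molecule field that names polyA RNA. Whether PM and vehicle libraries were made in the same way cannot be read from them, so for each PM effect below, the exposure and a difference in library preparation cannot be told apart. Vehicle replicates 1 and 3 were the most alike pair of their group, with a chi-square per degree of freedom of 2.01 against 3.24 for the next pair, above sampling noise, and were kept apart.

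The promoters of 3 members are shown because these genes differ in how they moved: Grik2 and Neto2 were lower in PM in both sets, and Grik5 was higher in the second set. They are the 250 bases before the transcript start in RefSeq on GRCm38.p6, all on the minus strand and written 5′ to 3′. Capitals mark GGGCGG or its reverse complement CCGCCC, the GC box letters, searched on both strands with overlapping matches counted.
Grik2 (chr10:49788755-49789004): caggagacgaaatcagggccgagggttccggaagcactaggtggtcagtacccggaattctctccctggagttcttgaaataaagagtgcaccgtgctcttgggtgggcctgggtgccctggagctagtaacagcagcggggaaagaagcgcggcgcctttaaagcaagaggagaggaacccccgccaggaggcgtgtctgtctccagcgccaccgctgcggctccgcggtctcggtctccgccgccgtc
Neto2 (chr8:85700925-85701174): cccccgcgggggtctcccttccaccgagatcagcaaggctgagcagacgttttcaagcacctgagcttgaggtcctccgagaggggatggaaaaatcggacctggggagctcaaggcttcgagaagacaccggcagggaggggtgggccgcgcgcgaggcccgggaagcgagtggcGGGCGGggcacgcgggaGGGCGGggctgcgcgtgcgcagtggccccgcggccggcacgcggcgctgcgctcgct
Grik5 (chr7:25072370-25072619): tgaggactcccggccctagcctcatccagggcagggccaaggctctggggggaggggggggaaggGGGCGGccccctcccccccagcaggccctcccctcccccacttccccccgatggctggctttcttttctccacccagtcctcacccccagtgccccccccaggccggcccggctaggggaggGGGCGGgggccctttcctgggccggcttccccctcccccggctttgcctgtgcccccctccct
The Grik2 window held 0 GC boxes and 20 CG dinucleotides, the Neto2 window, at the gene's annotated start, 2 and 30, and the Grik5 window 2 and 8. A further Neto2 start in the table, at chr8:85691010-85691259, held 0 and 0. Of the members not shown, Grik3, also lower in both sets, held 6 GC boxes and 42 CG dinucleotides, and Grik4 1 and 36. Of all 32851 promoters of that table, 32.7% held at least 1 GC box in the same 250 bases, and the median number of CG dinucleotides was 6. Promoters were examined for 5 members, namely Grik2, Grik3, Grik4, Grik5 and Neto2, and not for the others.

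Of the 7 genes, 5 were lower in PM, 0 were higher and 2 did not pass, against a background in which 69.1% of all 14982 tested genes passed, 36.4% lower and 32.7% higher (edgeR quasi-likelihood test with the set as covariate, adjusted p threshold of 0.05). The 5 genes were Neto1, Grik2, Neto2, Grik1 and Grik3. The members' median log2 fold change was -1.14, beside a median of -0.04 over all tested genes. In the same 5 genes every PM library lay below every vehicle library, a pattern seen in 28.1% of tested genes, while 24.3% had every PM library above and 52.4% had no overlap in either direction. Fewer cells of a type and less RNA per cell cannot be told apart in bulk tissue.

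**Figure D1:**
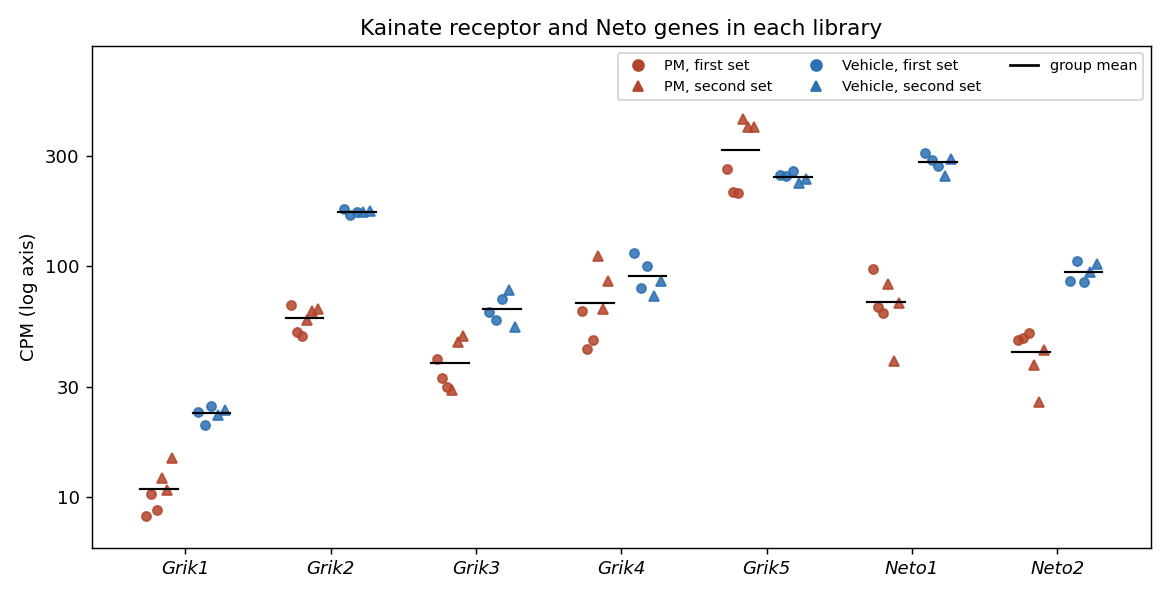
Expression of the 7 genes in each library, in CPM (log axis), with PM left of vehicle for each gene, circles for the first set, triangles for the second, and bars at the group means. PM and vehicle points do not overlap for Grik1, Grik2, Grik3, Neto1 and Neto2, while Grik5 in PM splits by set, at 207 to 263 CPM in the first and 400 to 432 CPM in the second.

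The auxiliary subunit Neto1 had the largest estimated change of the 7 over both sets. It had 38.7, 67.8 and 97.1 CPM as lowest, median and highest of the PM libraries, against 308, 289, 273, 246 and 290 CPM in vehicle replicates 1 to 5. CPM are counts scaled to the library's TMM-corrected total. The groups did not overlap, with 97.1 CPM in the highest PM library and 246 CPM in the lowest vehicle library. The means were 69.4 ± 19.8 CPM in PM (SD, n = 6) and 281 ± 23.5 CPM in vehicle (SD, n = 5), a 4.01-fold lower level (log2 fold change -2.003, SE 0.17, edgeR adjusted p = 2.5999e-07). PM replicate 5 was the lowest library, for Neto1 and also for Neto2.

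Neto2, the other auxiliary subunit, had 25.7, 45.6 and 51.0 CPM as lowest, median and highest of the PM libraries, against 85.7, 105, 85.4, 94.0 and 102 CPM in vehicle replicates 1 to 5. The groups did not overlap. Its level was 2.22-fold lower in PM (log2 fold change -1.15, SE 0.14, edgeR adjusted p = 6.3766e-06). Both Neto genes fell. Per kilobase of exon, Neto1 made up 54.3% ± 5.71 of the summed Neto level in PM (SD, n = 6) and 68.6% ± 2.70 in vehicle libraries (SD, n = 5), ranges that did not overlap.

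Among the low-affinity subunits, Grik2, which encodes GluK2, the pore subunit at mossy fibre synapses, had the largest estimated change. It had 49.9, 60.9 and 67.8 CPM as lowest, median and highest of the PM libraries, against 177, 166, 171, 171 and 174 CPM in vehicle replicates 1 to 5. Vehicle libraries were tightly grouped, with an SD of 4.01 CPM about a mean of 172 CPM (n = 5), and PM libraries had 59.4 ± 7.44 CPM (SD, n = 6). The 2.91-fold lower level in PM had a log2 fold change of -1.54 (SE 0.090, edgeR adjusted p = 9.0998e-09).

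Grik1 encodes GluK1, the subunit known mainly from interneurons, and was the least expressed of the 7. It had 8.27, 10.5 and 14.7 CPM as lowest, median and highest of the PM libraries, from 122 to 174 counts, against 23.4, 20.5, 24.8, 22.6 and 23.6 CPM in vehicle replicates 1 to 5, from 138 to 295 counts. All PM libraries were below all vehicle libraries. The level was 2.20-fold lower in PM (log2 fold change -1.14, SE 0.12, edgeR adjusted p = 2.2316e-06).

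Grik3, for GluK3, a subunit of low glutamate sensitivity, had 29.1, 36.1 and 49.7 CPM as lowest, median and highest of the PM libraries, against 63.4, 58.1, 72.2, 78.5 and 54.2 CPM in vehicle replicates 1 to 5. The gap between the groups was small, 49.7 CPM in the highest PM library and 54.2 CPM in the lowest vehicle library. The level was 1.75-fold lower in PM (log2 fold change -0.81, SE 0.15, edgeR adjusted p = 0.00028798). With only the libraries of the second set in the fit, its log2 fold change of -0.65 did not pass (edgeR adjusted p = 0.13461), nor did the value for the second set in the joint fit without vehicle replicate 4, at -0.38 (edgeR adjusted p = 0.20931).

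The high-affinity subunits did not pass over both sets. Grik4, for GluK4, the subunit known for its expression in CA3, had 63.5, 43.4 and 47.7 CPM in the PM libraries of the first set and 111, 65.2 and 85.7 CPM in those of the second, against 114, 80.0 and 100 CPM in vehicle libraries of the first set and 74.2 and 86.0 CPM in those of the second. PM was below vehicle throughout the first set, and the groups overlapped in the second. Over both sets the log2 fold change was -0.48 (SE 0.21, edgeR adjusted p = 0.0596). It passed with DESeq2, at -0.44 (adjusted p = 0.043441), and without vehicle replicate 4, vehicle replicate 5 or PM replicate 4, at -0.64, -0.58 and -0.60 (edgeR adjusted p = 0.017588, 0.03952 and 0.010573).

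Grik5, for GluK5, the partner subunit of GluK2 in most brain kainate receptors, was the most highly expressed of the 7 per length. It had 263, 210 and 207 CPM in the PM libraries of the first set and 432, 400 and 400 CPM in those of the second, against 248, 245 and 258 CPM in vehicle libraries of the first set and 228 and 237 CPM in those of the second. The first set overlapped between groups, whereas in the second every PM library was above every vehicle library. Over both sets the log2 fold change was 0.27 (SE 0.16, edgeR adjusted p = 0.13781). It passed without the filter on low counts, at 0.37 (edgeR adjusted p = 0.030905), and turned to -0.09 (edgeR adjusted p = 0.40604) with the trend of exonic length and GC content removed.

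The PM effect was also estimated within each set, from 1 model with a separate mean for PM and vehicle in either set. In the first set 6 of 7 genes were lower and 0 higher, with backgrounds of 38.9% lower and 32.1% higher. In the second set 5 were lower and 1 was higher, with backgrounds of 32.5% and 32.3%. Grik1, Grik2, Grik3, Neto1 and Neto2 were lower in both sets, Grik4 in the first, and Grik5 was higher in the second. Some of these calls were lost under an alternative. In the first set, Grik4 and Neto2 did not pass with the trend of length and GC content removed by the longest transcript, at -0.38 and -0.08 (edgeR adjusted p = 0.09981 and 0.58521), and Grik3 turned to 0.02 (edgeR adjusted p = 0.89669). In the second set that setting left Grik3 at -0.16 and Grik2 at 0.04 (edgeR adjusted p = 0.46996 and 0.72296), and Grik3 also missed the threshold without the filter on low counts, at -0.64 (edgeR adjusted p = 0.053512).

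**Figure D2:**
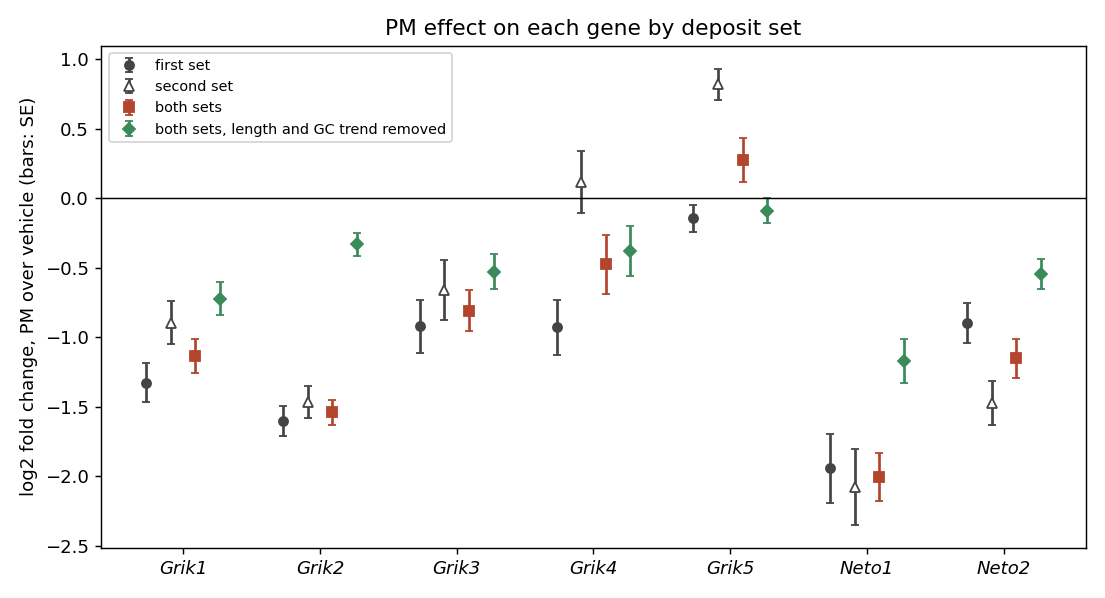
Log2 fold change of PM over vehicle for each gene with its standard error, in the first set (filled circles), the second set (open triangles), both sets (squares), and both sets with the length and GC trend removed (diamonds). The values of the sets lie close for Grik2 and Neto1, and apart for Grik4 (-0.93 and 0.12) and Grik5 (-0.14 and 0.82).

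For Grik5 the first-set log2 fold change was -0.14 (SE 0.098, edgeR adjusted p = 0.19793) and its second-set value 0.82 (SE 0.11, edgeR adjusted p = 8.6596e-06). The difference of 0.96 (SE 0.15) passed its own test (edgeR adjusted p = 0.00028528). For Grik4 the values were -0.93 (SE 0.20, edgeR adjusted p = 0.0010054) and 0.12 (SE 0.22, edgeR adjusted p = 0.65511), and the difference of 1.05 (SE 0.30) also passed (edgeR adjusted p = 0.020287). Both high-affinity subunits thus had the higher PM effect in the second set. The other members did not pass this test, while 29.6% of all 14982 tested genes did. A pass is therefore not particular to these genes. With the length and GC trend removed, Grik5 in the second set stood at 0.17 and did not pass (edgeR adjusted p = 0.12534), while in the first set it passed at -0.29 (edgeR adjusted p = 0.0041967), as it did at -0.27 without PM replicate 1 (edgeR adjusted p = 0.0091478). Grik4's difference did not pass without PM replicate 3, without vehicle replicate 4, without the filter on low counts or with the trend removed (edgeR adjusted p = 0.071731, 0.077311, 0.08867 and 0.069152).

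Differences of the PM effect between sets were common, with 29.6% of all tested genes past the threshold. Of these, 2618 had a higher PM effect in the second set and 1810 a lower one. Without vehicle replicate 5 these numbers were 1653 and 747. The sets also differed in sex-linked RNA. Counts of 4 Y-linked genes were 2126 to 2436 in the vehicle libraries of the first set and 0 in those of the second, while Xist, the RNA of the inactive X chromosome, had at most 3.16 CPM in vehicle libraries of the first set and 2277 and 2422 CPM in those of the second. PM replicates 3 and 6 had 1 and 0 Y-linked counts, and the other PM libraries 2140 to 2206. In the second set Grik5 had 400 CPM in PM replicate 6, without Y-linked counts, and 432 and 400 CPM in PM replicates 4 and 5, which carried them. In the first set it had 207 CPM in PM replicate 3, and 263 and 210 CPM in PM replicates 1 and 2. Grik4 had 85.7 CPM in PM replicate 6 beside 111 and 65.2 CPM, and 47.7 CPM in PM replicate 3 beside 63.5 and 43.4 CPM. Set and sex-linked make-up cannot be told apart in vehicle libraries. Within each set, PM and vehicle libraries also differed in sex-linked make-up, and its part in the PM effect was not tested. Library make-up also moved with the set, in PM libraries more than in vehicle libraries. Counts on no feature averaged 20.4% in PM and 61.3% in vehicle libraries of the first set, and 31.7% in PM and 61.5% in vehicle libraries of the second. Rn45s averaged 14.4% of gene counts in PM and 1.25% in vehicle libraries of the first set, and 5.60% in PM and 2.04% in vehicle libraries of the second, and Malat1 0.112% in PM and 2.21% in vehicle libraries of the first set, and 0.766% in PM and 2.17% in vehicle libraries of the second. The part of these measures in the set differences of Grik4 and Grik5 was not tested.

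For the other 5 genes the difference between sets did not pass. It was 0.13 for Grik2 (SE 0.16, edgeR adjusted p = 0.56163) and -0.13 for Neto1 (SE 0.37, edgeR adjusted p = 0.81674), the closest values. For Neto2 it was -0.57 (SE 0.21, edgeR adjusted p = 0.055564), from -1.47 in the second set and -0.90 in the first. That difference passed with RLE size factors (-0.65, edgeR adjusted p = 0.031566), with upper-quartile factors (-0.59, edgeR adjusted p = 0.048383), without the filter on low counts (-0.70, edgeR adjusted p = 0.014409) and without PM replicate 6 (-0.85, edgeR adjusted p = 0.0062287) or vehicle replicate 2 (-0.68, edgeR adjusted p = 0.03353).

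Levels of different genes were compared per kilobase of exon. In PM libraries Grik5 came first with 61.6 ± 20.04 CPM per kilobase (SD, n = 6), followed by Grik4 with 11.6 ± 4.23, Neto1 with 8.31 ± 2.37, Neto2 with 6.91 ± 1.56, Grik2 with 4.48 ± 0.561, Grik3 with 4.23 ± 0.977 and Grik1 with 1.60 ± 0.350 CPM per kilobase. Only the first step and the last step of this order had ranges that did not overlap, so from Grik4 through Neto1, Neto2 and Grik2 to Grik3 no step exceeded the spread between libraries. In vehicle libraries Grik5 also came first, with 47.1 ± 2.20 CPM per kilobase (SD, n = 5), followed by Neto1 with 33.7 ± 2.81, Neto2 with 15.4 ± 1.45, Grik4 with 15.2 ± 2.70, Grik2 with 12.95 ± 0.303, Grik3 with 7.27 ± 1.11 and Grik1 with 3.42 ± 0.239 CPM per kilobase. There, Neto2, Grik4 and Grik2 overlapped with their neighbours, and the other steps were clear of overlap. Neto1 came after Grik4 in PM libraries and before it in vehicle libraries.

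The make-up of the subunits differed as well. Of the summed level per kilobase of Grik1 to Grik5 within a library, Grik5 took 73.2% ± 2.78 in PM (SD, n = 6) and 54.8% ± 1.64 in vehicle libraries (SD, n = 5). Grik2 took 5.68% ± 1.34 in PM and 15.1% ± 0.730 in vehicle libraries. Grik1 took 2.00% ± 0.444 in PM and 3.98% ± 0.225 in vehicle libraries. Grik3 took 5.30% ± 1.26 in PM and 8.48% ± 1.37 in vehicle libraries, and Grik4 13.8% ± 1.92 in PM and 17.7% ± 2.22 in vehicle libraries. The ranges of PM and vehicle libraries did not overlap for Grik1, Grik2, Grik3 and Grik5, and did for Grik4. These shares are a description of the family and were given no test. They hold any effect of length and GC content that differs between libraries: with that trend removed, the log2 fold changes were -0.09 for Grik5 and -0.33 for Grik2, against 0.27 and -1.54 without the removal, so most of the contrast between these genes was no longer there.

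**Figure D3:**
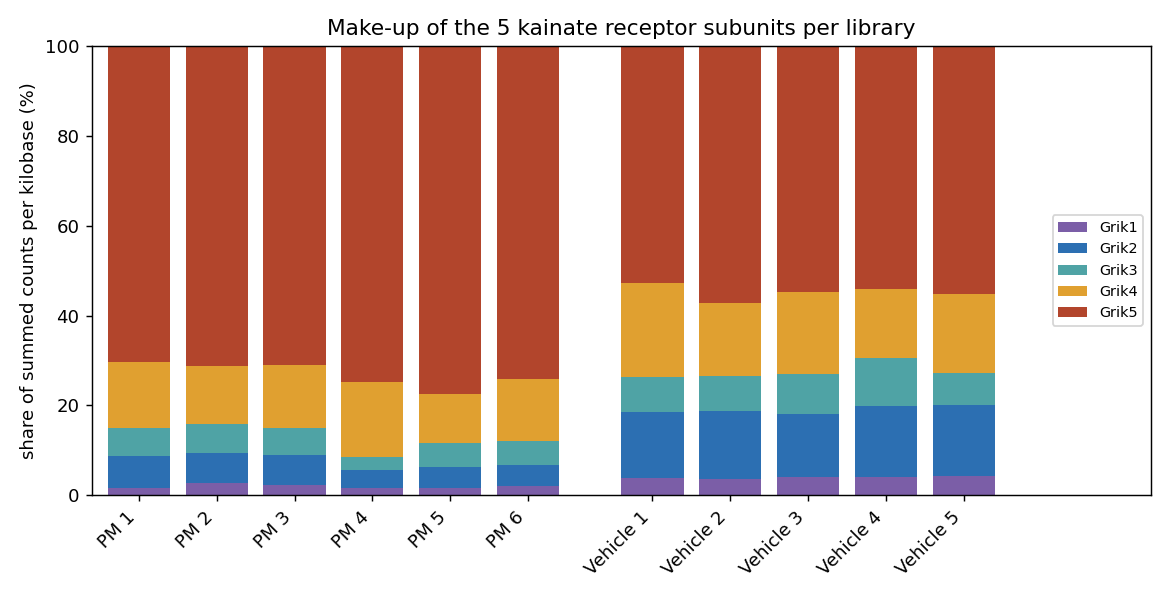
Share of each subunit gene in the summed counts per kilobase of exon of Grik1 to Grik5, in percent, 1 bar per library with PM left of vehicle. Grik5 takes 70.4% to 77.5% in PM and 52.7% to 57.2% in vehicle libraries, and Grik2 takes 3.94% to 7.09% in PM and 14.1% to 15.8% in vehicle libraries.

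High-affinity subunits, Grik4 and Grik5 together, made up 84.1% to 91.5% of the subunit level in PM and 69.4% to 73.7% in vehicle libraries. Within the sets, this share averaged 84.8% in PM and 73.4% in vehicle libraries in the first set, and 89.3% in PM and 71.0% in vehicle libraries in the second. Grik5 stood at 13.6 ± 3.81 times the level of Grik2 in PM (SD, n = 6) and at 3.63 ± 0.189 times in vehicle libraries (SD, n = 5), a contrast that the removal of the trend reduces in the same way. The summed level of Neto1 and Neto2 was 0.201 ± 0.0850 of that of the 5 subunits in PM and 0.572 ± 0.0489 in vehicle libraries. With the longest annotated transcript as length, Grik5 took 75.0% in PM and 56.0% in vehicle libraries, and Grik1 2.96% in PM and 5.87% in vehicle libraries.

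Most members have long gene bodies, which the choice by name did not use. In GENCODE release M21 on GRCm38, Grik2 spans 693934 bases on chromosome 10 (49094833 to 49788766, minus strand), Grik4 426359 bases on chromosome 9 (42518135 to 42944493, minus strand), Grik1 394366 bases on chromosome 16 (87895900 to 88290265, minus strand) and Grik3 223474 bases on chromosome 4 (125490700 to 125714173, plus strand). Neto1, on chromosome 18, spans 111767 bases. Neto2 spans 64337 bases on chromosome 8 (85636588 to 85700924, minus strand) and Grik5, the shortest, 62498 bases on chromosome 7 (25009849 to 25072346, minus strand). Of the tested genes with an annotated position, the fifth with the longest spans had 69.4% of genes lower in PM and a median log2 fold change of -0.76, and Grik1, Grik2, Grik3, Grik4 and Neto1 are in it.

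The members also differ in exonic length and GC content. Grik5 has 5168 exonic bases and a transcript GC content of 61.7%, in the fifth of genes with the highest GC, of which 13.3% were lower and 51.2% higher. Grik2, with 13246 exonic bases and 37.9% GC, and Neto1, with 8352 bases and 39.6%, are in the fifth with the longest exonic length, of which 70.5% were lower and 8.28% higher. Neto2 has 6129 exonic bases and 36.5% GC. With Grik2 and Neto1 it is among genes of 30.96% to 43.87% GC, of which 56.5% were lower and 16.2% higher. Grik3 is also in the group of longest exonic length. By GC, Grik3 and Grik4 are among genes of 51.66% to 55.55%, of which 24.1% were lower and 41.5% higher. By gene span, Grik5 and Neto2 are among genes of 34541 to 79061 bases, of which 46.9% were lower and 20% higher. By exonic length, Grik5 is among genes of 3738 to 5257 bases, 29% lower and 33.8% higher. Among annotated overlaps, Neto1 shares 219 exonic bases with an antisense gene, Neto2 20 bases with the miRNA gene Mir8109 on the opposite strand, and Grik4 59 bases with Gm24420. The strand setting of the counting is not stated, so for Neto1 and Neto2 reads of such stretches cannot be told apart. Gm24420 lies on the strand of Grik4, so no strand setting would separate their reads. Mir8109 has a gene row of its own, whereas Gm24420 and the antisense gene have none.

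**Figure D4:**
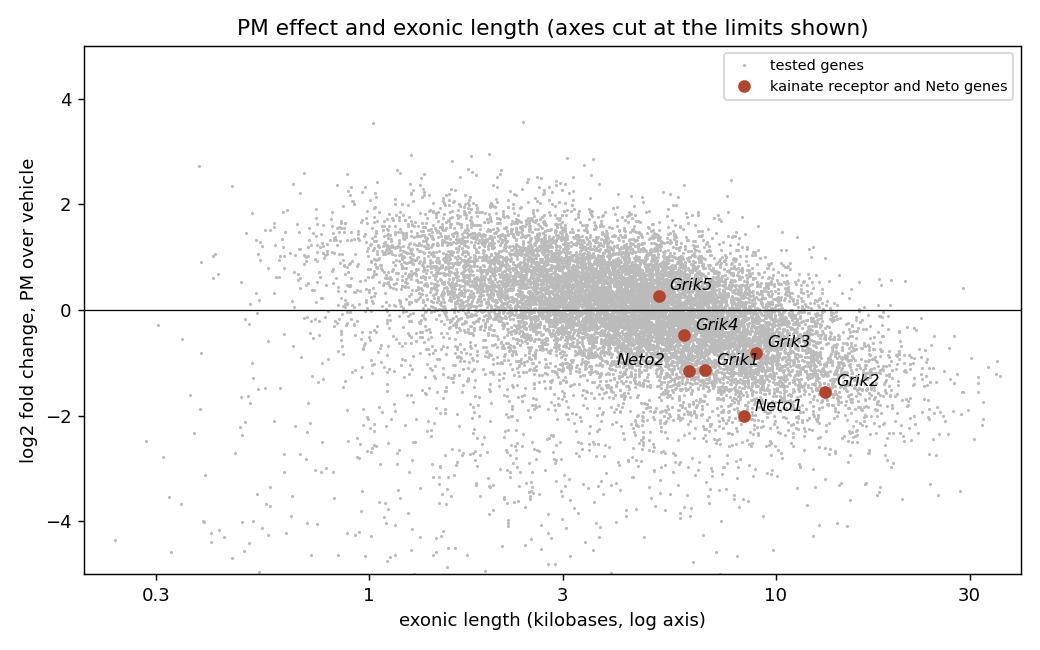
Log2 fold change of PM over vehicle against exonic length in kilobases (log axis) for the tested genes with an annotated length (grey) and the 7 members (red). Grik5, at 5168 exonic bases, stands highest among the members at 0.27, and Grik2, at 13246 bases, stands at -1.54, on the side of long genes where the cloud lies below 0.

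With a smooth trend on exonic length and GC content removed from each library, the 5 negative effects were smaller in size and 5 of 7 genes were still lower, beside 29.8% of tested genes lower and 36.8% higher. Neto1 stood at -1.17 (SE 0.16, edgeR adjusted p = 2.3658e-05), Grik1 at -0.72 (SE 0.12, edgeR adjusted p = 9.414e-05), Neto2 at -0.55 (SE 0.11, edgeR adjusted p = 0.00053864), Grik3 at -0.53 (SE 0.12, edgeR adjusted p = 0.0018601) and Grik2 at -0.33 (SE 0.081, edgeR adjusted p = 0.0023975). Within the second set, Grik2 then stood at -0.20 and did not pass (edgeR adjusted p = 0.097296). The choice of length mattered. With the longest transcript in place of the exonic length, 2 genes passed, Grik1 at -0.98 (edgeR adjusted p = 8.289e-06) and Neto1 at -0.71 (edgeR adjusted p = 0.0011108), while Grik2 at -0.10, Grik3 at -0.06 and Neto2 at -0.25 did not (edgeR adjusted p = 0.27217, 0.69626 and 0.06321).

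Proteins that anchor, move, modify or edit kainate receptors were described from a list of 30 genes. Of these, 13 were lower and 10 higher in PM and 7 did not pass, 43.3% and 33.3% against backgrounds of 36.4% and 32.7%, with a median log2 fold change of -0.10. With the length and GC trend removed, 9 were lower and 11 higher, with a median of 0.07, beside backgrounds of 29.8% and 36.8%. Nrxn3, a presynaptic neurexin that links C1q-like proteins to kainate receptors at mossy fibres, had 192 ± 15.1 CPM in PM (SD, n = 6) and 547 ± 31.5 CPM in vehicle libraries (SD, n = 5), which is -1.51 on the log2 scale (SE 0.080, edgeR adjusted p = 4.9204e-09). C1ql2, such a C1q-like protein made by granule cells, moved the other way, with 97.6 ± 16.2 CPM in PM and 47.1 ± 6.27 CPM in vehicle libraries (1.06 on the log2 scale, SE 0.13, edgeR adjusted p = 5.9749e-06).

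Scaffolds were divided as well. Dlg4, the scaffold PSD-95, had 1131 ± 66.5 CPM in PM and 570.5 ± 35.0 CPM in vehicle libraries (log2 fold change 0.99, edgeR adjusted p = 7.5135e-08), whereas Dlg2, the scaffold PSD-93, had 263 ± 48.1 CPM in PM and 662 ± 26.2 CPM in vehicle libraries (log2 fold change -1.32, edgeR adjusted p = 2.3293e-08). Dlg2 stood at -0.04 and did not pass once the length and GC trend was taken out (edgeR adjusted p = 0.69057). Cask, a membrane-associated scaffold, was lower at -0.95 and Dpysl2, the collapsin response mediator CRMP2, at -1.37. Pfn2, the actin-binding profilin of neurons, was higher at 0.73. Under the same removal the other named partners kept their direction and passed over both sets, Dlg4 at 2.00, Pfn2 at 0.52, C1ql2 at 0.40, Cask at -0.23, Nrxn3 at -0.58 and Dpysl2 at -1.25. Within single sets, Cask then did not pass in the first (-0.09, edgeR adjusted p = 0.25841), nor C1ql2 in the second (0.15, edgeR adjusted p = 0.46966).

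AMPA receptor pore subunits had 4 of 4 genes lower with a median log2 fold change of -0.75, and NMDA receptor subunits had 4 of 7 lower and 1 higher with a median of -0.71. Of all tested genes, 36.4% were lower and 32.7% higher. No difference between these families and the kainate group was tested. The 2 delta receptor genes were both lower, with a median of -1.82. With the length and GC trend removed, AMPA pore subunits had 2 genes higher and 1 lower and NMDA subunits 1 higher and 5 lower. The backgrounds were then 36.8% higher and 29.8% lower. Over both sets, none of the 5 lowered kainate receptor and Neto genes changed sign under that removal or with the longest transcript as length.

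Markers of the cells that carry kainate receptors moved in both directions, beside the backgrounds of 36.4% lower and 32.7% higher. Of 11 interneuron markers, 2 were higher, 4 lower and 5 not passed, with Reln at -1.70 and Gad2 at -1.21, and the list's summed level was 1161 to 1320 CPM in PM and 1520 to 1592 CPM in vehicle libraries. The 2 higher ones, named after their values were seen, were Pvalb at 1.4998 and Vip at 0.98. Of 7 dentate granule cell markers, 3 were higher, 2 lower and 2 not passed, with Prox1 at -1.97 and C1ql2 at 1.06 and a summed level of 331 to 597 CPM in PM and 437 to 562 CPM in vehicle libraries. Of 6 CA3 markers 2 were higher, 1 lower and 3 not passed, with Bok at 2.55 and Pvrl3 at -1.23 and a summed level of 786 to 1246 CPM in PM and 562 to 780.1 CPM in vehicle libraries. Of 6 CA1 markers, 2 were higher, 2 lower and 2 not passed, with a summed level of 420 to 672 CPM in PM and 503 to 621 CPM in vehicle libraries. Of 8 pan-neuronal markers, 5 were higher and 2 lower, with a summed level of 5531 to 7096 CPM in PM and 6694 to 7302 CPM in vehicle libraries. Among glial and vessel markers, those higher in PM were 4 of 8 for astrocytes with 2 lower, 5 of 7 for oligodendrocytes, 5 of 7 for microglia and 4 of 6 for endothelium, with 0 lower in the last 3, and 1 of 6 for oligodendrocyte precursors with 2 lower. Choroid plexus markers summed to 32.5 to 2490 CPM in PM and 70.6 to 1250 CPM in vehicle libraries, with 1 of 5 tested lower. Of markers of neighbouring regions, 1 of 5 was higher and 1 lower for striatum, 1 of 5 higher and 3 lower for thalamus, and 2 of 3 tested higher and 1 lower for pituitary. Once the trend on length and GC content was taken out, backgrounds were 29.8% lower and 36.8% higher. Markers higher and lower were then 3 and 8 for interneurons, 3 and 1 for dentate granule cells, and 1 and 1 for CA3. They were 0 and 3 for CA1, 6 and 0 for the pan-neuronal list, and 6 and 0 for astrocytes. For oligodendrocytes they were 6 and 1, for their precursors 0 and 3, for microglia 5 and 0, and for endothelium 5 and 0. Choroid plexus markers had 0 and 0, striatum 0 and 1, thalamus 1 and 2, and pituitary 2 and 1. The part of cell make-up in the kainate receptor results was not tested.

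The genes most like each member were sought by Pearson correlation of log2 CPM over the 11 libraries among 14502 other genes with a mean of at least 1 CPM. These correlations carry the difference between the groups and are given as a description. For Grik2 they were Phc3 (r = 0.999) and Slc4a8 (r = 0.999), for Neto1 Col25a1 (r = 0.998) and Lrrc8d (r = 0.996), for Neto2 Snhg14 (r = 0.993) and Pgap1 (r = 0.991), and for Grik1 Mir6989 (r = 0.993) and Zfp287 (r = 0.985). Mir6989 averaged 0.118 CPM in PM and 2.26 CPM in vehicle libraries. It thus passed the limit of 1 CPM through the vehicle libraries alone and had almost no counts in PM. Grik3 was most like Usp13 (r = 0.981) and B230110G15Rik (r = 0.967), Grik5 most like B4galnt4 (r = 0.992) and Bzrap1 (r = 0.990), and Grik4 most like Ackr1 (r = 0.943) and Polr1a (r = 0.942). Among the members themselves, r was 0.950 between Grik2 and Neto1, 0.949 between Neto1 and Neto2, and 0.936 between Grik1 and Grik2. For Grik5, r was 0.435 with Grik4 and negative with the other 5, from -0.655 with Neto2 to -0.175 with Grik3, and for Grik4 it was 0.312 with Neto2 to 0.670 with Grik1.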

How the data were processed

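The authors deposited 1 table of raw counts per gene symbol for each of 11 libraries, not normalized. Per the submitters' processing notes, FastQC 0.11.9, Trimmomatic 0.36, STAR, SAMtools 1.9, Picard 2.9.2 and HTSeq 0.9.1 were used, and the builds mm10 and hg19 are named. The labels' protocols state removal of ribosomal RNA, while their molecule field names polyA RNA. HTSeq summary rows, 28.6% to 42.4% of all counts in PM and 65.7% to 67.3% in vehicle libraries, were left out of library sizes and tests.

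The tests used edgeR 4.0.16 (R 4.3.3): a filterByExpr filter with minimum count 10, TMM scaling and the robust quasi-likelihood test. Its two-sided p-values were adjusted by Benjamini and Hochberg's method across the whole table of 14982 genes. SE was taken as the absolute log2 fold change over the root of the F statistic. DESeq2 1.42.0 was an alternative. The length and GC trend was a spline with 5 degrees of freedom each, fitted per library over the 96.3% of tested genes with annotation. A count of 0 allows 3 counts, 0.177 to 0.266 CPM in PM and 0.238 to 0.490 CPM in vehicle libraries, for counting error only. Steps were tested on simulated data. Named genes were all 7 members, the 2 most alike genes of each, and up to 4 partners of smallest p in each direction, of which 1 is not reported here. Marker genes named are the 2 of smallest p of each list. Members and lists were chosen with earlier results of these data known.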

Additional observations from a re-analysis of the deposited data

Results flagged for a closer look

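The PM effect on Grik5 differed between the sets by 0.96 on the log2 scale (edgeR adjusted p = 0.00028528), and that on Grik4 by 1.05 (edgeR adjusted p = 0.020287). Both were picked out by the test of that difference, which 29.6% of all tested genes passed.

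PM replicate 4 had a Grik3 share of the summed subunit level of 2.91%, where the next lowest PM library had 5.20%, so the gap was 0.654 of the group's range. Vehicle replicate 4 had a high-affinity share of 69.4%, where the next lowest vehicle library had 72.7%, a gap of 0.762 of the range. Chance marks about 1 in 20 groups as having such a far sample.

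In counts that no gene received, those ambiguous between genes averaged 1.30% of all counts in PM and 0.555% in vehicle libraries, and those not uniquely aligned 7.98% in PM and 4.48% in vehicle libraries.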

How the results depend on the processing

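Neto1 and Grik1 kept their direction and call over both sets under every alternative run. Over both sets, leaving out 1 library gave -1.20 to -1.08 for Grik1, -1.61 to -1.49 for Grik2, -0.92 to -0.74 for Grik3, -0.64 to -0.35 for Grik4, 0.14 to 0.37 for Grik5, -2.13 to -1.89 for Neto1 and -1.21 to -1.05 for Neto2, with 5 to 6 members lower and 0 higher. Among all genes, 5021 to 5435 were then lower and 4657 to 5096 higher. The first set gave 6 to 7 members lower and 0 higher, among 5273 to 5844 genes lower and 4427 to 5304 higher. The second gave 4 to 5 members lower and 1 higher, among 4043 to 5024 genes lower and 3900 to 4996 higher. For the difference between sets, 0 to 1 members were lower and 1 to 2 higher, among 747 to 2461 genes lower and 1653 to 3151 higher, and the value ranged from -0.0029 to 0.29 for Grik2, from -0.38 to 0.13 for Neto1, and, for Grik4 in the second set, from -0.093 to 0.29.

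Fitted alone, the first set gave -0.83 for Grik4 and -0.048 for Grik5, and the second 0.13 for Grik4, 0.83 for Grik5 and -0.65 for Grik3, with 1 member higher. DESeq2 gave -0.44 for Grik4. Without the low-count filter Grik5 stood at 0.37 over both sets, with 1 member higher, and at 0.0042 in the first set; 1 member had a higher and 1 a lower value in the second set. RLE and upper-quartile factors also gave 1 lower.

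Removing the length and GC trend moved the median of all genes by 0.108. It gave -0.089 for Grik5, 0 members higher in the second set, 1 with a higher value in the second set, and differences of -0.16 for Grik3 and 0.049 for Neto1. With the longest transcript, chosen after seeing the data, 2 members were lower (Grik2 -0.10, Grik3 -0.057, Neto2 -0.25 and Grik5 -0.073 did not pass), 3 lower and 0 higher in the second set, 1 with a higher value there, Grik3 0.025 in the first set, Grik2 0.043 in the second, and differences of -0.18 for Grik3 and 0.018 for Neto1. The cause of the shifts under these and the other settings was not tested.

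Same-numbered libraries did not deviate together (r = -0.0153, -0.0317, -0.0983, -0.163 and -0.107). Whether they share a litter or batch is not stated. This check cannot exclude it, since PM and vehicle libraries differ strongly in make-up. With the replicate number as a block, 5 members were lower and 0 higher, among 4890 genes lower and 4318 higher, Neto1 stood at -2.07 and no member's call changed. Depth limits Grik1 most, at 122 to 174 counts in PM and 138 to 295 in vehicle libraries.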
